A study of Rattus norvegicus with 40 samples.

Results

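The genes described here are 43 nuclear genes of oxidative phosphorylation, encoding subunits of complexes I to IV of the mitochondrial respiratory chain and the electron carrier cytochrome c. They were named in a list, and a gene was taken as measured where at least 1 probeset of the array carried its symbol alone. Where a gene had several such probesets, the one with the highest mean log2(signal + 16) over all 40 arrays was used. In this way 39 of the 43 genes were measured, 21 of complex I, 4 of complex II, 6 of complex III and 8 of complex IV, among 14217 genes and 31042 probesets in all. *Ndufa10*, *Uqcrb*, *Cycs* and *Cox7a2* had only probesets that also carry other symbols and are not described. The arrays (Affymetrix Rat230_2) measured mRNA of single dorsal root ganglia (DRGs), which hold the cell bodies of sensory neurons. In male Sprague-Dawley rats the left L5 spinal nerve was tightly ligated distal to its ganglion (spinal nerve ligation, SNL, 5 rats) or exposed without a ligature (sham, 5 rats), and 4 weeks later the L4 and L5 DRGs of the operated (ipsilateral) and the other (contralateral) side were taken. Each rat thus gave 4 arrays and each of the 8 groups holds 5 arrays. The L5 ganglion of SNL rats has its own nerve ligated, the L4 ganglion of the same side lies next to it with its nerve intact, and every contralateral ganglion comes from a rat that was itself operated on. As a result, no group comes from an unoperated rat.

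Complex I (NADH dehydrogenase) and complex II (succinate dehydrogenase) pass electrons to ubiquinone, complex III passes them on to cytochrome c, and complex IV (cytochrome c oxidase) hands them to oxygen. Complexes I, III and IV pump protons across the inner mitochondrial membrane while they do so, and ATP synthase uses the resulting gradient to make ATP. Sensory neurons depend on this pathway to hold ion gradients along very long axons. Their large-diameter cells are known for a high content of mitochondria.

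The signals had been scaled by the MAS 5 algorithm so that the trimmed mean of every array was the same, yet the median signal of an array ranged from 28.6 to 55.6 and was greater in ipsilateral than in contralateral DRGs in all 4 comparisons (exact permutation test, two-sided, p = 0.00794 in each, the smallest value that 5 against 5 arrays allow, adjusted p = 0.0115 over 16 tests of array quality). The GAPDH transcript is probed at both ends, and the log2 ratio of its 3′ signal to its 5′ signal, which rises as RNA degrades, was 1.61 ± 0.10 in ipsilateral and 0.97 ± 0.08 in contralateral L5 DRGs of SNL rats, 2.35 ± 0.12 in ipsilateral and 1.40 ± 0.06 in contralateral L4 DRGs of SNL rats, 1.72 ± 0.08 in ipsilateral and 1.29 ± 0.12 in contralateral sham L4 DRGs, and 1.11 ± 0.11 in ipsilateral and 1.01 ± 0.09 in contralateral sham L5 DRGs (SD, n = 5 each). In the first 3 of these comparisons the sides did not overlap (exact permutation p = 0.00794, adjusted p = 0.0115), and in sham L5 they did (p = 0.175, adjusted p = 0.186). The same ratio for beta-actin was 4.73 ± 0.26 in ipsilateral and 3.59 ± 0.20 in contralateral L5 DRGs of SNL rats (exact permutation p = 0.00794, adjusted p = 0.0115) and 4.79 ± 0.44 in ipsilateral and 4.02 ± 0.18 in contralateral L4 DRGs of SNL rats (p = 0.0159, adjusted p = 0.0212, exact permutation). In sham rats it was 4.57 ± 0.24 in ipsilateral and 4.79 ± 0.20 in contralateral L4 DRGs (p = 0.159, adjusted p = 0.181) and 4.41 ± 0.16 in ipsilateral and 4.20 ± 0.11 in contralateral L5 DRGs (p = 0.0556, adjusted p = 0.0684, exact permutation), so that in sham L4 the 2 ratios differed in direction. None of the 13 measured sensory neuron markers had a mean signal under 20 in any group. The arrays of SNL L5 carry the names of another array series than the other 30 arrays, and array names run in blocks of 5 by group, so the order of processing and the group cannot be told apart.

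In the ligated L5 DRG the respiratory chain genes were lower almost throughout. Of the 39 members, 34 were called lower than in the contralateral L5 DRG and none was called higher (limma, adjusted p under 0.05 over all probesets), with a median log2 difference of -0.38. Over all probesets 16.8% were called lower and 30.3% higher, with a median of 0.12. Among the 4832 probesets with a mean signal of at least 200, which is the range of most members, 44.0% were called lower and 31.0% higher (median -0.08). By complex, 20 of 21 members of complex I, 3 of 4 of complex II, 5 of 6 of complex III and 6 of 8 of complex IV were called lower. On 31 of the 39 members all 5 ipsilateral arrays lay below the 5 contralateral ones, and on none did they all lie above, against 13.1% below and 20.8% above over all probesets. After quantile normalization, which forces all arrays to the same distribution of signals, 32 members were called lower and 2 higher (19.8% and 21.3% of all probesets), and the sign of no member turned. In all, 30 of the 34 calls held under each of the 3 scalings, the deposited one, quantile normalization and equal array medians. Quantile normalization kept 30 and equal medians all 34. Array medians were greater on the ipsilateral side in all 4 comparisons, so equal medians shift the differences downward and favour falls. Equal medians moved the median of all probesets by more than 0.1 on the log2 scale, to 0.00, and that of the members to -0.58. With them 37 members were called lower, as were 24.4% of all probesets and 59.5% of those with a mean signal of at least 200 (median -0.29). A lower signal from a whole ganglion can come from fewer cells of a type or from less RNA per cell, which cannot be told apart in bulk tissue.

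**Figure D1:**
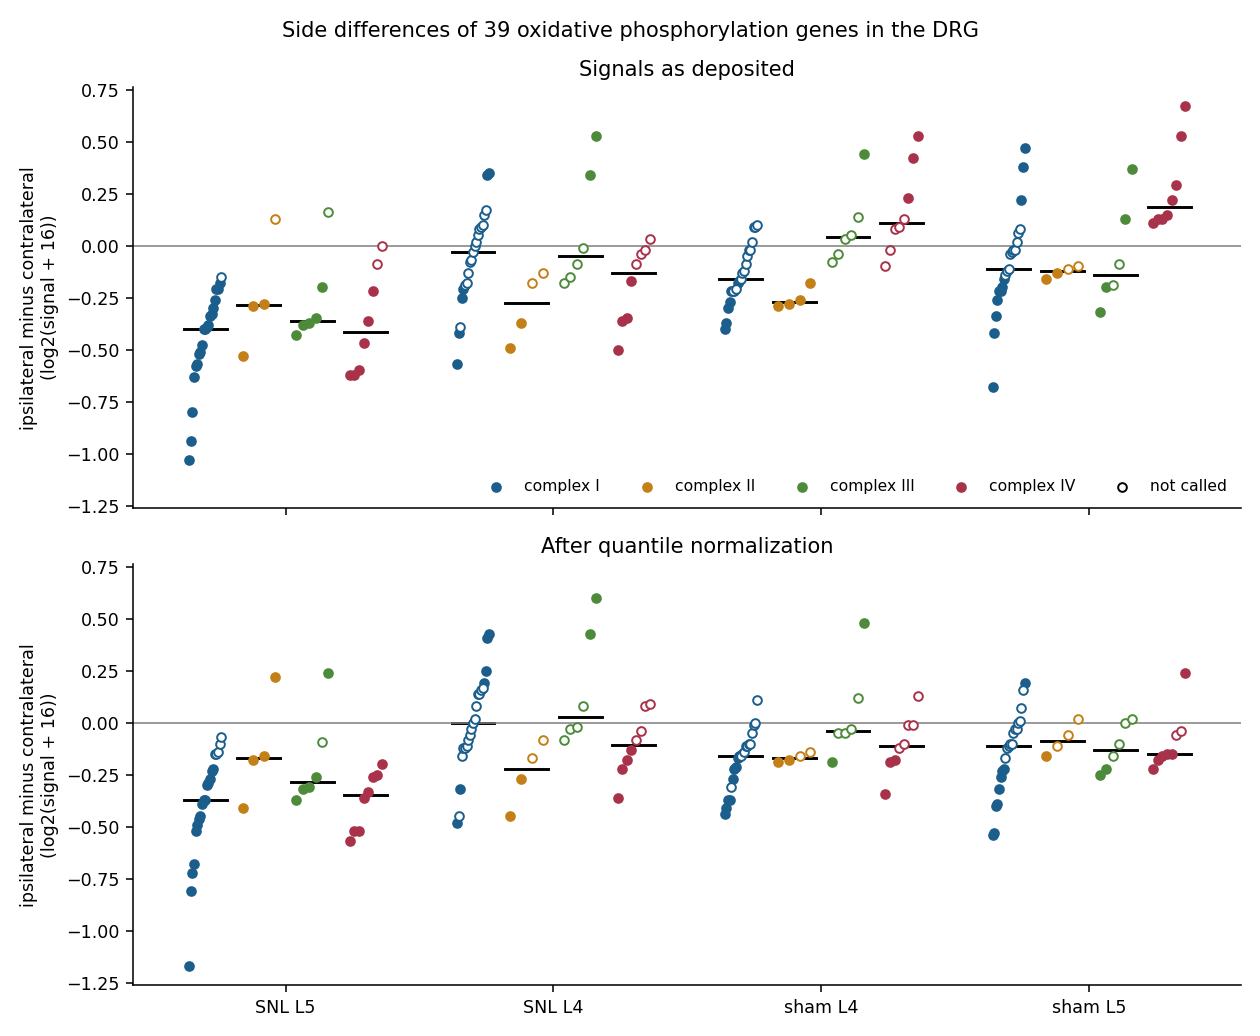
Ipsilateral minus contralateral difference on the log2(signal + 16) scale (y axis) of the 39 members in the 4 comparisons (x axis), as deposited (upper panel) and after quantile normalization (lower panel); each point is 1 gene, coloured by complex, filled where called at an adjusted p under 0.05 and open where not, and lines are medians. Of the 39 members 34 were called lower in SNL L5, and complex IV lay above 0 in sham L5 as deposited (8 of 8 called higher) but not after quantile normalization (1 higher, 5 lower).

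The largest falls were in complex I, and in the arm of it that lies in the membrane farthest from the NADH site. All 6 measured members of this distal arm were called lower, with a median log2 difference of -0.72. After quantile normalization 5 of them were (median -0.60), and the call of *Ndufb5* was lost (-0.21 as deposited and -0.10 after it, adjusted p = 0.118). As deposited, the medians were -0.48 for the 3 members of the proximal arm, -0.36 for the 6 members of the N module, which oxidizes NADH, and -0.34 for the 5 members of the Q module, which reduces ubiquinone. *Ndufb10* (probeset 1388361_at), an accessory subunit of the distal arm, had signals of 319, 323, 350.3, 385 and 358 in ligated L5 DRGs, against 603, 734, 698, 677 and 686 in contralateral L5 DRGs. The highest ligated ganglion thus stayed well below the lowest contralateral one, and the log2 difference was -0.94 (SE 0.06, adjusted p = 1.40e-09). *Ndufb6* (1371346_at), of the same arm, had signals of 365, 402, 470.0, 397 and 425 in ligated L5 DRGs, against 693, 828, 728, 731 and 672 on the contralateral side. It also fell without overlap, by 0.80 on the log2 scale (SE 0.07, adjusted p = 3.23e-08). For *Ndufb9* (1371701_at) the ligated L5 DRGs gave 580.0, 571, 572, 591 and 634, against 941, 943, 967, 862 and 897 in the contralateral ones. These narrow and separate groups gave a log2 difference of -0.63 (adjusted p = 1.55e-08). *Ndufb8* (1375628_at) had low signals, of 10.5, 19.1, 20.2, 22.2 and 23.9 in ligated and 63.5, 39.7, 61.0, 61.7 and 53.0 in contralateral L5 DRGs. Its difference of -1.03 (SE 0.13, adjusted p = 4.92e-06) was the largest of all members, but it rests on signals near the offset of 16.

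The remaining members of complex I fell less. *Ndufb3* (1373041_at), another distal subunit, had signals of 1356, 1282, 1415, 1411 and 1356 in ligated L5 DRGs, against 1772, 1954, 1469, 1801 and 1464 in contralateral ones. The contralateral arrays spread widely, but the groups did not overlap (log2 difference -0.30, adjusted p = 0.00313). *Ndufa1* and *Ndufa8* of the proximal arm fell by 0.48 and 0.57 on the log2 scale, and *Ndufs4* and *Ndufs6* of the N module by 0.58 and 0.51. *Ndufv1*, which binds NADH and flavin, fell by 0.18, and the iron-sulfur subunits *Ndufs1* and *Ndufv2* fell by 0.26 and 0.39. The sides of *Ndufv1* overlapped, and its call was lost after quantile normalization (-0.07, limma adjusted p = 0.294). *Ndufs8*, an iron-sulfur subunit of the Q module, was the only member of complex I that was not called (-0.15, adjusted p = 0.243). *Ndufa4*, named for complex I and later found in complex IV, fell by 0.40. It is counted with complex I throughout.

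Complex II behaved unevenly. *Sdhd* (1388294_at), one of the 2 membrane anchors of succinate dehydrogenase, had signals of 316, 303, 309, 263 and 292 in ligated L5 DRGs, against 449.8, 419, 446, 438 and 415 in contralateral ones. The sides were far apart and the log2 difference was -0.53 (SE 0.06, adjusted p = 5.40e-07). The other anchor, *Sdhc* (1371311_at), had signals of 311, 318, 324, 283 and 326 in ligated and 292, 286, 282, 301 and 257 in contralateral L5 DRGs. Its sides overlapped, and the difference of 0.13 was not called as deposited (adjusted p = 0.0707) but was called higher after quantile normalization (0.22, adjusted p = 0.00451). *Sdha* (1367678_at), the flavoprotein that oxidizes succinate, gave 382, 387, 432, 409.7 and 442 in ligated L5 DRGs, against 484, 551, 521, 503 and 472 on the contralateral side. It fell without overlap by 0.29 (adjusted p = 0.000451), and the iron-sulfur subunit *Sdhb* fell by 0.28.

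In complex III, *Uqcrh* (1371415_at), the hinge subunit next to cytochrome c1, had signals of 1168, 1061, 1161, 1178 and 1243 in ligated L5 DRGs, against 1515, 1673, 1410.1, 1437 and 1378 in contralateral ones. It was lower on every ligated array than on any contralateral one (-0.35, adjusted p = 0.000151). The heme subunit *Cyc1* gave 233, 238, 230.3, 171 and 222 on the ipsilateral side, against 276, 275, 299, 296 and 293 on the contralateral side. It fell by 0.38 (adjusted p = 0.000475), and the Rieske iron-sulfur protein *Uqcrfs1* and the small subunit *Uqcrq* fell by 0.37 and 0.43. The core protein *Uqcrc1* (1388301_at) stood apart, with 314, 272, 366, 337 and 358 in ligated and 262, 313, 299.8, 306 and 282 in contralateral L5 DRGs. These overlapped, and the difference of 0.16 was not called (adjusted p = 0.0930), while after quantile normalization it was called higher (0.24, adjusted p = 0.0106). For the partner core protein *Uqcrc2* the probeset used fell by 0.20, and a second probeset of the gene gave -1.09 (adjusted p = 6.51e-08). On the probeset used the sides overlapped, and its call was lost after quantile normalization (-0.09, limma adjusted p = 0.179). The 2 probesets of *Sdhd* fell alike (-0.53 and -0.52), and the second one of *Ndufa9* was not called (-0.18, adjusted p = 0.301).

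In complex IV the largest falls were those of *Cox7c*, *Cox6a1* and *Cox5b*. *Cox7c* (1389820_at) had signals of 562, 580.1, 591, 594 and 571 in ligated L5 DRGs, against 865, 1021, 872, 869 and 889 in contralateral ones. The ligated arrays lay within a narrow band far below the others (-0.62, SE 0.05, adjusted p = 3.64e-08). *Cox6a1* and *Cox5b* fell by 0.62 and 0.60, *Cox4i1*, the subunit that binds ATP and adjusts the activity of the enzyme, by 0.47, *Cox8a* by 0.36 and *Cox6c* by 0.22. *Cox5a* and *Cox7b* were not called as deposited. *Cox5a* (1375127_at) gave 2760.5, 2281, 2562, 2606 and 2488 in ligated and 2579, 3028, 2276, 2523 and 2332 in contralateral L5 DRGs, with means of 2539 ± 176 in ligated and 2548 ± 297 in contralateral DRGs (SD, n = 5 each, limma adjusted p = 0.999). *Cox7b* (1371387_at) gave 2179, 1906, 2062, 2176 and 2136 on the ipsilateral side, against 2296, 2685, 1972, 2127 and 2098 on the contralateral side (difference -0.09, adjusted p = 0.347). Both overlapped widely between the sides, and after quantile normalization both were called lower (-0.20 and -0.26), so that all 8 members of the complex then were.

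**Figure D2:**
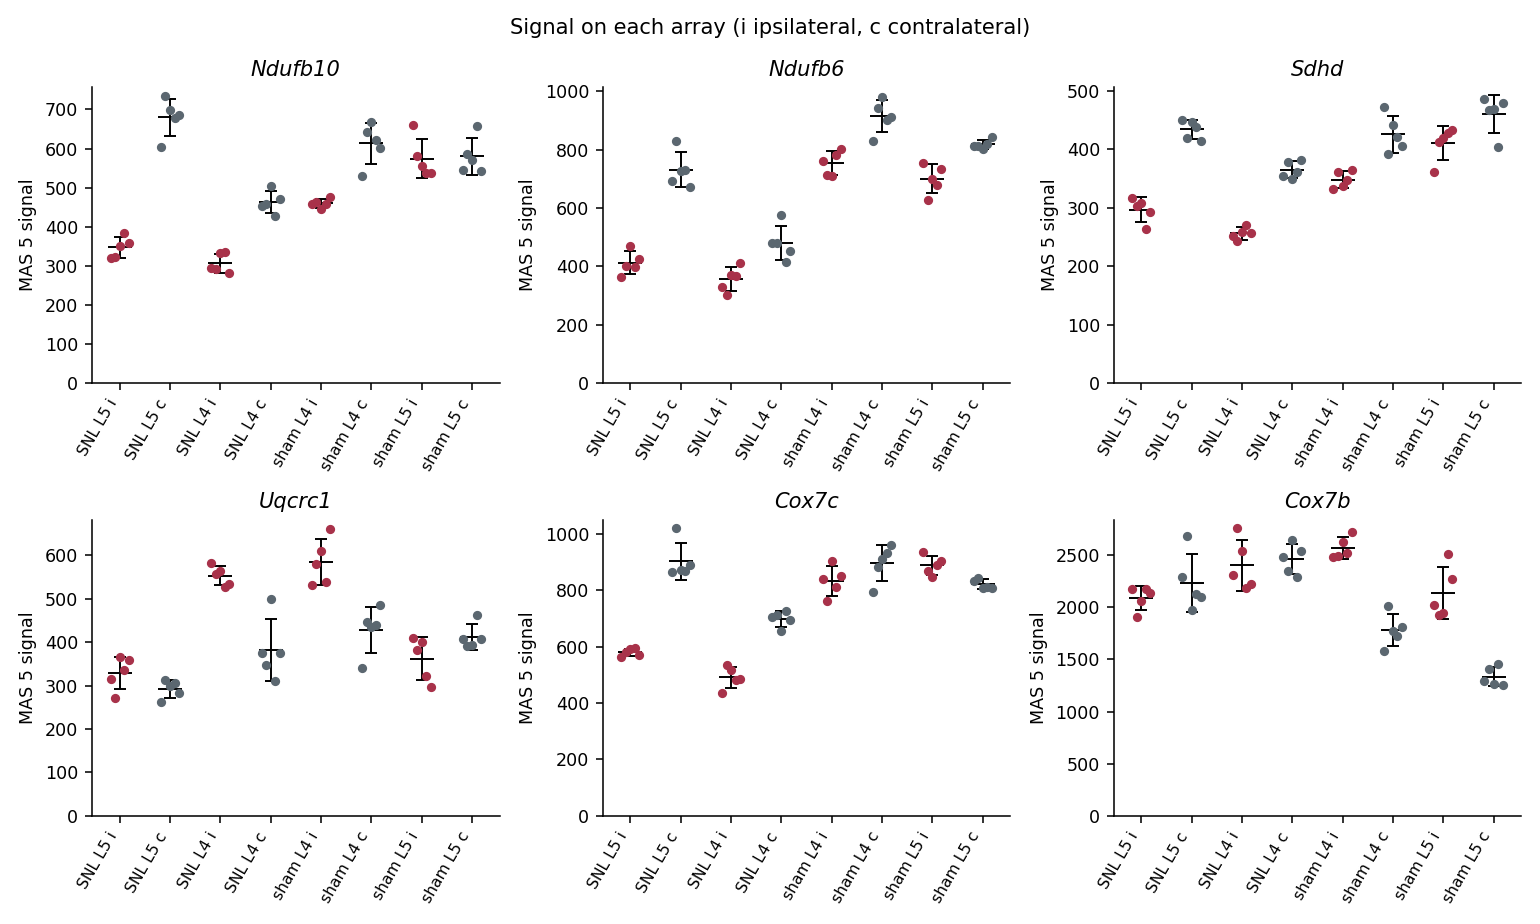
MAS 5 signal (y axis, linear, from 0) of 6 members on each array by group (x axis; red ipsilateral, grey contralateral); points are arrays, lines the mean and bars the SD (n = 5). In SNL L5 the 5 ipsilateral arrays of Ndufb10 (319 to 385), Ndufb6, Sdhd and Cox7c lie below all 5 contralateral ones, while Uqcrc1 and Cox7b overlap.

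Markers of other cells differed in the same comparison. Of 10 measured markers of skeletal muscle, 9 were called lower in ligated L5 DRGs and 1 higher (median log2 difference -3.57), and their summed signal was 1380 to 1522 in ligated L5 DRGs and 4795 to 5539 in contralateral L5 DRGs. The contralateral L5 DRGs of SNL rats were thus high in muscle transcripts, since the sum was 1207 to 1347 in ipsilateral and 946 to 992 in contralateral L5 DRGs of sham rats. In ligated L5 DRGs *Ckm*, *Cox6a2*, *Mb*, *Myh2* and *Myh4* had mean signals under 20, and in contralateral L5 DRGs of SNL rats none of the 10 markers did. The marker that was higher was *Myh1* (0.28). Of the sensory neuron markers 9 of 13 were called lower and 3 higher (median -0.47, summed signal 16787 to 19567 in ligated and 19229 to 24125 in contralateral DRGs), and of 11 macrophage markers 9 were called higher (median 1.19, summed signal 2771 to 3088 in ligated and 1037 to 1144 in contralateral DRGs). Of 8 fibroblast markers 7 were called higher and 1 lower (median 1.39, summed signal 10681 to 12120 in ligated and 4941 to 5294 in contralateral DRGs). Of 6 neutrophil markers 5 were called lower (median -0.89, summed signal 443 to 481 in ligated and 1000 to 1064 in contralateral DRGs), and all 6 measured markers of myelinating Schwann cells were called higher (median 0.52, summed signal 8747 to 10909 in ligated and 6216 to 8007 in contralateral DRGs). The part of these cells, and of the higher 3′ to 5′ ratios of GAPDH and beta-actin, in the falls of the members was not tested.

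Since most members moved one way, their promoters were searched for 4 short motifs of factors known to bind respiratory chain genes, on both strands of the window from 250 bases before to 50 bases after the annotated start (RefSeq, GRCr8). The table held 34 of the 39 members, without *Cox6a1*, *Cox6c*, *Cyc1*, *Ndufa8* and *Ndufb9*, among 33469 promoters. The letters CCGGAAG, the core bound by ETS factors such as GABP, were found in 12 members (35.3%) and in 8.75% of all promoters of the table. ATGGCGG, a core of YY1, was found in 11 members (32.4%) and 4.80% of all promoters, AAGGTCA, a core of estrogen-related receptors, in 4 members (11.8%) and 4.61%, and CGCATGCG, a core of NRF1, in 1 member (2.94%) and 1.66%. CCGGAAG occurred in members that fell and in 1 that was not called (*Ndufs8*), and 11 of the 12 were called lower in the ligated L5 DRG, as were 34 of all 39 members. Counted before the start only, the ETS core was found in 11 members and 7.27% of all promoters. The YY1 core was found there in 2 members and 2.47%, so most of its matches in members lie after the start. The core of estrogen-related receptors was found before the start in 1 member and 3.99%, and that of NRF1 in 1 and 1.47%. A match is no evidence of binding. The following windows of 100 bases end at the base before the start and show ETS cores in 6 members that were called lower, and the NRF1 core of *Uqcrc1*, which was not; capitals mark CCGGAAG or its reverse complement and, in *Uqcrc1*, CGCATGCG.
Uqcrq: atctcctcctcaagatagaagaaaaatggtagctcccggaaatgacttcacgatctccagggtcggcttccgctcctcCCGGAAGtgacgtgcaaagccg
Uqcrh: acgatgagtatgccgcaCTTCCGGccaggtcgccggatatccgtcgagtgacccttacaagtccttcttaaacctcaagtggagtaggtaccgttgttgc
Uqcrc2: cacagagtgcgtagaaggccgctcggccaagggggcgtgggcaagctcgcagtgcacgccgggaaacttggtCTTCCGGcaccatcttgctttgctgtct
Cox5b: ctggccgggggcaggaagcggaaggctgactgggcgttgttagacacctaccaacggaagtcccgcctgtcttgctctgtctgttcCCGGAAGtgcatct
Cox8a: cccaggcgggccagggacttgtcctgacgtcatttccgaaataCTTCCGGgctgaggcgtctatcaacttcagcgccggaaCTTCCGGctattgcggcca
Sdhd: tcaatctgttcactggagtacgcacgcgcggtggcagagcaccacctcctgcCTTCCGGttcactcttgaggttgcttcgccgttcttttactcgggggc
Uqcrc1: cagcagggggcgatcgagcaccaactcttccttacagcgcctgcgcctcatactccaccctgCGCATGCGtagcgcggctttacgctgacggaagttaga
They lie at chr10:38089979-38090078, minus strand (*Uqcrq*), chr5:134790883-134790982, minus strand (*Uqcrh*), chr1:184599140-184599239, plus strand (*Uqcrc2*), chr9:46417737-46417836, plus strand (*Cox5b*), chr1:213833624-213833723, minus strand (*Cox8a*), chr8:59850642-59850741, minus strand (*Sdhd*) and chr8:118468123-118468222, plus strand (*Uqcrc1*). The core begins 22 bases before the start in *Uqcrq* and 14 in *Cox5b*, both on the gene's strand, and on the other strand 83 bases before it in *Uqcrh*, 28 in *Uqcrc2* and 48 in *Sdhd*. *Cox8a* holds 2 cores on the other strand, 57 and 19 bases before the start. The NRF1 core of *Uqcrc1* begins 38 bases before the start. *Uqcrc2* has a second core outside the window shown, 117 bases before the start.

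In the L4 DRG beside the ligation the members moved in both directions. Of 39, 10 were called lower and 4 higher than in the contralateral L4 DRG, with a median of -0.09, against 9.01% lower and 10.1% higher over all probesets and 33.7% lower and 16.1% higher among those with a mean signal of at least 200. After quantile normalization 8 were called lower and 7 higher (9.71% and 8.26% of all probesets), with a median of -0.04. These are 20.5% and 17.9% of the members, below the 28.4% and 19.8% of probesets with a mean signal of at least 200. All ipsilateral arrays lay below the contralateral ones for 9 members and above them for 3 (7.38% and 7.63% of all probesets). The calls that held in all 3 scalings were the falls of *Ndufb6*, *Ndufb10*, *Sdha*, *Sdhd*, *Cox5b*, *Cox6a1* and *Cox7c* and the rise of *Uqcrc1*. *Ndufb10* fell most, at 294, 291, 332, 335 and 281 in ipsilateral L4 DRGs, against 452, 458, 504, 428 and 472 in contralateral ones. The sides did not overlap (-0.57, adjusted p = 1.11e-05). *Cox7c* had 435, 534, 518, 481 and 485 in ipsilateral and 705, 711, 654, 725 and 696 in contralateral L4 DRGs (-0.50, adjusted p = 1.56e-05). For *Sdhd* the signals were 251, 243, 258, 271 and 257 on the ipsilateral side, against 354, 379, 349, 360.4 and 381 on the contralateral side (-0.49, adjusted p = 2.04e-05). In both genes every ipsilateral array lay below every contralateral one. *Ndufb6* had 329.9, 301, 371, 368 and 410.1 in ipsilateral and 479, 479, 576, 415 and 452 in contralateral L4 DRGs, where the highest ipsilateral and the lowest contralateral array nearly met (-0.42, adjusted p = 0.00281).

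The 4 rises in the L4 DRG of SNL rats were those of *Uqcrc1* and *Cyc1* of complex III and *Ndufv1* and *Ndufs7* of complex I. With equal medians only that of *Uqcrc1* was called. *Uqcrc1* had signals of 582, 557, 564, 527 and 535 in ipsilateral L4 DRGs, against 376, 348, 499, 311 and 375 in contralateral ones. One contralateral ganglion, of rat 9, was well above the rest of its group but still below all ipsilateral ones, and the log2 difference was 0.53 (SE 0.09, adjusted p = 0.000442). *Cyc1* had 302, 335, 311, 292 and 378 in ipsilateral and 277, 274, 234, 219.6 and 254 in contralateral L4 DRGs (0.34, adjusted p = 0.00736). *Ndufv1* (1371416_at) gave 399, 454, 476, 378 and 366 on the ipsilateral side, against 314, 286, 362, 289.8 and 352 on the contralateral side (0.35, adjusted p = 0.00703). Neither overlapped between the sides, although the gap was small. *Ndufs7* was higher by 0.34 (adjusted p = 0.0136), with 1 contralateral ganglion, of rat 48, inside the range of the ipsilateral ones. Of the 10 muscle markers, 2 were called higher and none lower in this comparison (summed signal 3386 to 3708 in ipsilateral and 2166 to 2295 in contralateral L4 DRGs). Of 6 neutrophil markers, 5 were called lower (summed signal 212 to 265 in ipsilateral and 1165 to 1284 in contralateral L4 DRGs). The part of these cells, and of the higher GAPDH ratio on this side, was not tested.

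Tested directly in SNL rats, the side difference at L5 was lower than that at L4 for 24 members and higher for 1 (limma interaction of side and segment, 8.08% and 11.1% of all probesets, median of the members -0.32), and the counts were again 24 and 1 after quantile normalization (8.33% and 10.1%). Among probesets with a mean signal of at least 200, 22.4% were lower and 24.5% higher as deposited. By complex, 15 of 21 members of complex I, none of complex II, 4 of 6 of complex III and 5 of 8 of complex IV were lower at L5. Among the members called, *Cyc1* differed most (-0.72, adjusted p = 3.61e-05), having fallen at L5 and risen at L4. *Ndufa1*, *Ndufa8*, *Ndufs6*, *Ndufs7*, *Ndufs4* and *Ndufv1* followed, with differences of -0.58, -0.58, -0.56, -0.55, -0.55 and -0.54. The only member whose side difference was higher at L5 was *Sdhc* (0.31, adjusted p = 0.0163). For *Sdhd*, which fell in both segments, the difference between them was -0.04 with an SE of 0.08 (adjusted p = 0.797), and for *Cox7c* it was -0.13 (SE 0.08, adjusted p = 0.328). The array series differs between the segments in SNL rats, and its effect on a side difference cannot be told apart from that of the segment. Cell type markers differed in the same test, with all 10 of skeletal muscle lower at L5 (median -3.35). Of 13 sensory neuron markers 8 were lower and none higher (median -0.56), and of 11 macrophage markers 7 were higher and none lower (median 0.98). The part of these cells in the members' values was not tested.

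Sham operation was accompanied by side differences too, and for complex IV their direction depended on the scaling. In sham L5 DRGs 13 members were called higher and 12 lower (31.1% and 19.3% of all probesets), with a median of -0.04. The sides did not overlap on 10 members with the ipsilateral arrays above and on 9 with them below (22% and 12.2% of all probesets). Without the contralateral array of rat 17, 8 members were called higher. Among probesets with a mean signal of at least 200, 26.3% were called higher and 28.1% lower. All 8 members of complex IV were called higher as deposited, but 1 was called higher and 5 lower after quantile normalization, where in all 2 members were called higher and 16 lower (17% and 21.5% of all probesets, median of the members -0.11). Across the 39 members the change as deposited was higher for members with a higher level (Spearman's rho = 0.81), and after quantile normalization rho was 0.14. Genes are not independent replicates, and the arrays are shared, so these values are descriptions. The 8 members with a mean log2(signal + 16) of at least 10 had a median difference of 0.38 as deposited and -0.13 after quantile normalization, and the other 31 had -0.11 in both. In sham L4 rho was 0.59 as deposited and -0.14 after quantile normalization, and in SNL L5 it was 0.07 and -0.07.

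**Figure D3:**
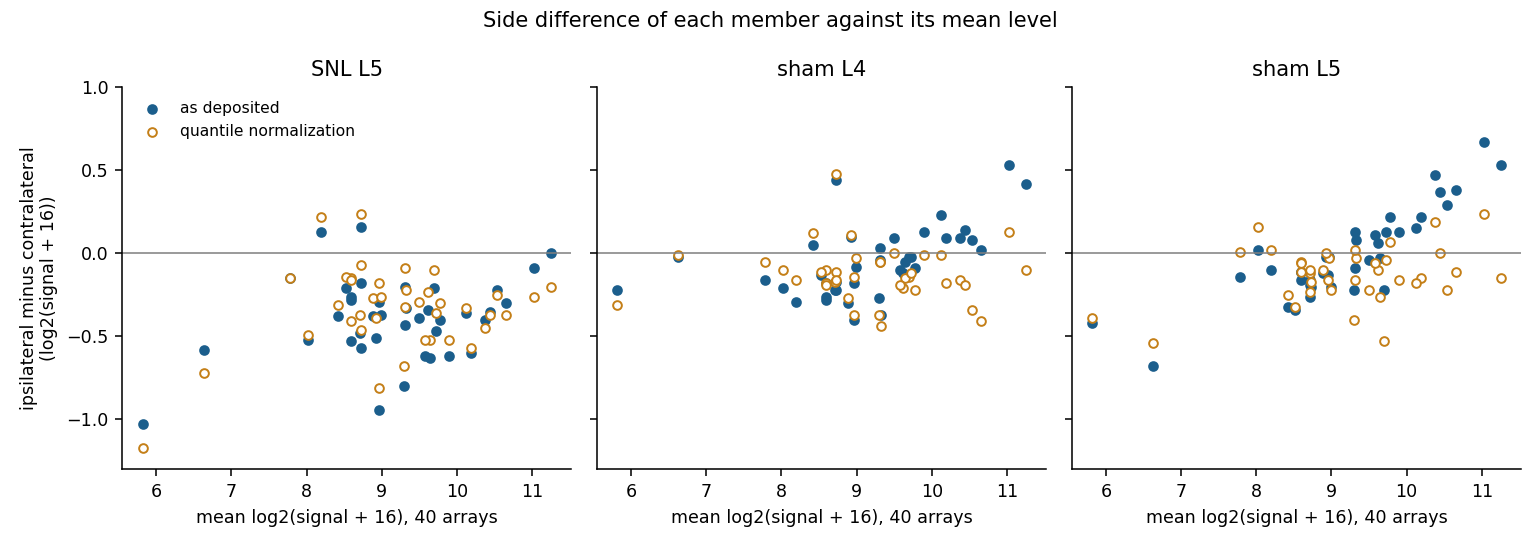
Ipsilateral minus contralateral difference of each of the 39 members (y axis, log2(signal + 16)) against its mean level over the 40 arrays (x axis, log2(signal + 16)) in 3 comparisons, as deposited (filled) and after quantile normalization (open). In sham L5 the 8 members with the highest mean level have a median of 0.38 as deposited and -0.13 after quantile normalization; in SNL L5 both sets of points lie mostly below 0 at all levels.

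*Cox7b*, a small subunit of complex IV, rose most in sham L5, with signals of 2021, 1927, 1949.8, 2516 and 2268 in ipsilateral DRGs, against 1289.9, 1407, 1259.8, 1458 and 1254 in contralateral ones. The groups were far apart, and the rise was called both as deposited (0.67, adjusted p = 4.33e-06) and after quantile normalization (0.24, adjusted p = 0.00753). *Cox5a*, a subunit of the same complex, had 2278, 2319, 2275, 2737 and 2517 in ipsilateral and 1651, 1692, 1651, 1728 and 1628 in contralateral sham L5 DRGs. Its rise of 0.53 (adjusted p = 2.78e-06) was a fall of 0.15 after quantile normalization (adjusted p = 0.0496). *Ndufa4* (1371323_at) had 1433, 1373, 1362, 1443 and 1420.0 on the ipsilateral side, against 1009, 1006, 982, 1085 and 989.6 on the contralateral side, and was called higher in both scalings (0.47 and 0.19, adjusted p = 1.08e-06 and 0.0104). For *Ndufb3* the signals were 1737, 1709, 1658, 1769 and 1634 in ipsilateral and 1236, 1251, 1249.8, 1492 and 1309.8 in contralateral DRGs, and *Uqcrh* had 1449, 1459, 1427, 1639 and 1473 in ipsilateral and 1083, 1113, 1152, 1252 and 1135 in contralateral DRGs. Both were higher on every ipsilateral array as deposited (0.38 and 0.37), but after quantile normalization their differences were -0.11 and 0.00 and neither was called.

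Of the 12 falls in sham L5, 9 were also called after quantile normalization. *Ndufb8* had 47.8, 51.0, 48.2, 55.1 and 44.2 in ipsilateral and 70.5, 91.1, 62.9, 74.1 and 60.4 in contralateral sham L5 DRGs (-0.42, adjusted p = 0.00132). *Ndufs7* (1371912_at), an iron-sulfur subunit of complex I, had 421, 448, 418, 407 and 347 on the ipsilateral side, against 479, 511, 490.0, 553 and 563 on the contralateral side (-0.34, adjusted p = 0.000782). *Cyc1* (1371342_at) had 317, 343, 342, 355 and 335 in ipsilateral and 439, 437, 424, 398 and 430.2 in contralateral DRGs (-0.32, adjusted p = 6.94e-05). In all 3 the sides did not overlap and the fall was also called after quantile normalization. *Ndufa1* (1388391_at) had 475, 436, 372, 407 and 413 on the ipsilateral side, against 501, 509.6, 511, 519.8 and 485 on the contralateral side (-0.26, adjusted p = 0.00175, and -0.23 after quantile normalization). *Sdha* had 555, 524, 535, 552 and 514 in ipsilateral and 593, 565, 587, 624 and 582 in contralateral sham L5 DRGs, a fall of 0.13 (adjusted p = 0.0219). All ipsilateral arrays of these genes lay below the contralateral ones. Of 13 neuronal markers 9 were called higher and 1 lower in sham L5 as deposited (median 0.49, summed signal 19591 to 24269 in ipsilateral and 13677 to 15093 in contralateral DRGs), and 3 higher and 2 lower after quantile normalization (median -0.02). Of 10 muscle markers 7 were called higher and none lower (2 and none after quantile normalization), with a summed signal of 1207 to 1347 in ipsilateral and 946 to 992 in contralateral sham L5 DRGs. All 6 neutrophil markers were called higher (4 after quantile normalization), with a sum of 252 to 291 in ipsilateral and 130 to 152 in contralateral DRGs. Of 11 macrophage markers 6 were called lower and 2 higher (7 and none after quantile normalization), with a sum of 1181 to 1366 in ipsilateral and 1307 to 1480 in contralateral DRGs. Of 6 markers of myelinating Schwann cells 4 were called lower and 2 higher (3 and none after quantile normalization), with a sum of 5775 to 6818 in ipsilateral and 4475 to 4847 in contralateral DRGs. The part of these cells in the members' values was not tested.

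In sham L4 DRGs 12 members were called lower and 4 higher (9.85% and 17.3% of all probesets, and 23.1% and 18.6% of those with a mean signal of at least 200), with a median of -0.08. The ipsilateral arrays lay below all contralateral ones for 7 members and above them for 5 (6.31% and 11.9% of all probesets). After quantile normalization 16 were called lower and 1 higher (8.98% and 9%), with a median of -0.14. All 4 members of complex II were called lower as deposited, 2 of them also after quantile normalization, whereas 3 members of complex IV were called higher as deposited and 3 others lower after quantile normalization. *Ndufb10* had 457, 463, 445, 457 and 477 in ipsilateral sham L4 DRGs, against 529, 643, 668, 622 and 601 in contralateral ones (-0.40, adjusted p = 0.000182). *Ndufa2* (1389288_at), of the N module, had 694, 684, 675, 673 and 685 on the ipsilateral side, against 712, 977, 930.2, 860.2 and 974 on the contralateral side (-0.37, adjusted p = 0.00153). The ipsilateral arrays of *Ndufa2* were tightly grouped and the contralateral ones spread widely above them. *Sdhc* had 239, 252, 259.7, 226 and 273 in ipsilateral and 327, 329, 287, 299 and 299 in contralateral sham L4 DRGs (-0.29, adjusted p = 0.00349). *Sdhd* gave 332, 361, 337, 348 and 364 on the ipsilateral side, against 472, 392, 442, 421 and 406 on the contralateral side (-0.28, adjusted p = 0.00250). Both anchors of complex II were thus lower without overlap on this side, although the call of *Sdhc* was lost after quantile normalization (adjusted p = 0.0877). Of 13 neuronal markers 8 were called higher and 1 lower as deposited (2 and 1 after quantile normalization), and their part was not tested.

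Among the rises in sham L4 only that of *Uqcrc1* was called both as deposited and after quantile normalization. With equal medians 2 members of complex IV were called higher, but *Uqcrc1* was not. Its signals were 532, 581, 610.1, 539.8 and 662 in ipsilateral sham L4 DRGs and 341, 447, 434, 439.8 and 485 in contralateral ones (0.44, adjusted p = 0.00115, and 0.48 after quantile normalization). Thus *Uqcrc1* was higher without overlap on the operated side of both cohorts at L4, at 553 ± 22.2 on the ipsilateral and 382 ± 70.7 on the contralateral side of SNL rats, and 585 ± 53.3 on the ipsilateral and 429 ± 53.0 on the contralateral side of sham rats (SD, n = 5 each). *Cox7b* had 2483, 2498, 2626, 2524 and 2722 on the ipsilateral side, against 1581, 2009, 1774, 1729.6 and 1812 on the contralateral side (0.53, adjusted p = 1.03e-05). *Cox5a* had 2868, 2729, 2894, 2976 and 2779 in ipsilateral and 1943, 2235, 2059, 2134 and 2269.7 in contralateral DRGs (0.42, adjusted p = 2.77e-05). *Cox8a* (1388113_at) gave 1468, 1452, 1333, 1414 and 1415 on the ipsilateral side, against 1099, 1255, 1243, 1183 and 1249 on the contralateral side (0.23, adjusted p = 0.00345). All 3 lay higher on every ipsilateral array as deposited, and after quantile normalization their differences were 0.13, -0.10 and -0.01, none of them called. *Ndufb6* was the only member called lower in all 4 comparisons in both scalings. In sham rats it had 760.0, 713, 710.2, 782 and 803 in ipsilateral and 831, 944, 979.8, 901 and 913 in contralateral L4 DRGs, a fall of 0.27, and 755, 628, 701, 679 and 735 in ipsilateral and 811, 813, 801, 820.1 and 842 in contralateral L5 DRGs, a fall of 0.22.

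Whether the side difference differed between SNL and sham rats was tested as an interaction. At L5 the side difference was lower in SNL than in sham rats for 26 members and higher for 2 (22.3% and 20.9% of all probesets, median of the members -0.42), and after quantile normalization for 18 and 3 (20.4% and 20.1%, median -0.18). Among probesets with a mean signal of at least 200 the shares were 43.9% lower and 26.9% higher as deposited, and 38.3% and 29.1% after quantile normalization. The 18 members called lower after quantile normalization, 46.2% of the 39, thus lie near the share of such probesets. All 8 members of complex IV were lower as deposited and 5 after quantile normalization, when *Cox7b*, *Cox7c*, *Cox5b*, *Cox6a1* and *Cox4i1* gave -0.51, -0.46, -0.43, -0.37 and -0.31. Among the members counted with complex I the largest interaction was that of *Ndufb10* (-0.92, SE 0.09, adjusted p = 8.42e-09, and -0.78 after quantile normalization). *Ndufa4*, later found in complex IV, followed (-0.87 and -0.64). *Uqcrc1* and *Sdhc* were higher (0.34 and 0.23, adjusted p = 0.0183 and 0.00920), and *Ndufb5* joined them after quantile normalization (0.42). *Cyc1* and *Ndufs4*, which fell in both cohorts, gave -0.06 (SE 0.09) and 0.10 (SE 0.22) and were not called. At L4 the interaction was lower for 7 members and higher for 4 (8.28% and 5.72%), but lower for 2 and higher for 8 after quantile normalization (7.31% and 5.16%). Among probesets with a mean signal of at least 200, 28.6% were lower and 11.7% higher as deposited, and 23.7% lower and 13.5% higher after quantile normalization. There *Ndufv1*, *Ndufs7*, *Ndufs3* and *Ndufa1* were higher in both scalings (0.57, 0.47, 0.38 and 0.31 as deposited), and *Cox6a1* and *Cox7b* lower (-0.49 and -0.57). The L5 arrays of SNL rats belong to another array series than those of sham rats, so at L5 series and cohort cannot be told apart. Cell type markers differed in the L5 interaction too. Of 10 muscle markers 9 were lower and none higher (median -3.65), and of 13 sensory neuron markers 9 were lower and none higher (median -1.05). Of 11 macrophage markers 9 were higher and none lower (median 1.19). The part of these cells in the members' values was not tested.

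Genes around the respiratory chain were examined in the ligated L5 DRG by the same test, from lists chosen with earlier results of these data known. Over all probesets 16.8% were called lower and 30.3% higher there as deposited, and 19.8% and 21.3% after quantile normalization. Among probesets with a mean signal of at least 200 the shares were 44.0% and 31.0%, and 39.3% and 35.5%. Of 15 measured genes of ATP synthase, which makes ATP from the proton gradient, 12 were called lower and 1 higher (median -0.35). The largest falls were in *Atp5mg* (-0.61), *Atp5pf* (-0.51) and *Atp5po* (-0.45), and the single rise, named after its value was seen, was that of the catalytic subunit *Atp5f1b* (0.33). Of 17 further subunits of complexes I, III and IV, 14 were called lower and none higher (median -0.34), led by *Ndufab1* (-0.75), *Ndufb7* (-0.70), *Ndufc1* (-0.69) and *Ndufa11* (-0.68). Among 7 tissue-restricted isoforms 3 were lower and 2 higher (median -0.10). The muscle isoforms *Cox8b* (-2.17) and *Cox6a2* (-1.28) had the largest falls, and *Cox6a2* also stands among the muscle markers above. Assembly factors were called lower for 12 and higher for 4 of 38 (median -0.07), a smaller share lower than among probesets with a mean signal of at least 200. *Atpaf1* (-1.12), *Coa5* (-1.05), *Cox14* (-1.04) and the copper chaperone *Cox17* (-0.59) fell most. After quantile normalization 14 genes of ATP synthase were lower and 1 higher, and 13 and 0 of the further subunits. The isoforms then gave 3 lower and 1 higher, and the assembly factors 11 and 3. The fall of *Cox14* was also called in the other 3 comparisons (SNL L4 -0.56, sham L4 -0.60, sham L5 -0.23).

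Regulators of mitochondrial biogenesis were called in both directions. Of 20 measured, 8 were called higher and 5 lower (median 0.01), against 30.3% and 16.8% of all probesets, and after quantile normalization 6 and 6, against 21.3% and 19.8%. The nuclear receptor *Esrrg* fell by 1.66 and the kinase subunit *Prkaa1* by 0.71, whereas the coactivator *Ppargc1b* and the factor *Yy1* rose by 0.61 and 0.60. Of 15 genes of the citric acid cycle and pyruvate dehydrogenase 9 were lower and 2 higher (median -0.20). The subunits of succinyl-CoA ligase parted, the beta subunit *Suclg2* rising by 0.80 and the alpha subunit *Suclg1* falling by 0.76, and *Idh3g* and *Idh3b* of isocitrate dehydrogenase fell by 0.62 and 0.55. Glycolysis was mixed, with 7 of 17 lower and 2 higher (median -0.08). *Pfkm* and *Pfkp*, isoforms of phosphofructokinase, fell by 0.57 and 0.42, while *Eno1* and *Pgk1* rose by 0.45 and 0.37. Of 25 genes of mitochondrial transport and dynamics 11 were lower and 6 higher (median -0.11), with the largest falls in the fission gene *Dnm1l* (-0.84), the import receptor *Tomm70* (-0.67), the peroxidase *Prdx3* (-0.61) and the carrier *Ucp2* (-0.59). The lower counts of glycolysis and of this list lie near the 44.0% of probesets with a mean signal of at least 200. After quantile normalization 7 genes of the citric acid cycle list were lower and 2 higher. Glycolysis then gave 7 and 2, and transport and dynamics 11 and 5 (median -0.04). In sham L5, ATP synthase genes were called higher for 6 and lower for 1 of 15 as deposited but lower for 6 and higher for none after quantile normalization, against 31.1% higher and 19.3% lower of all probesets as deposited and 17% higher and 21.5% lower after it.

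**Figure D4:**
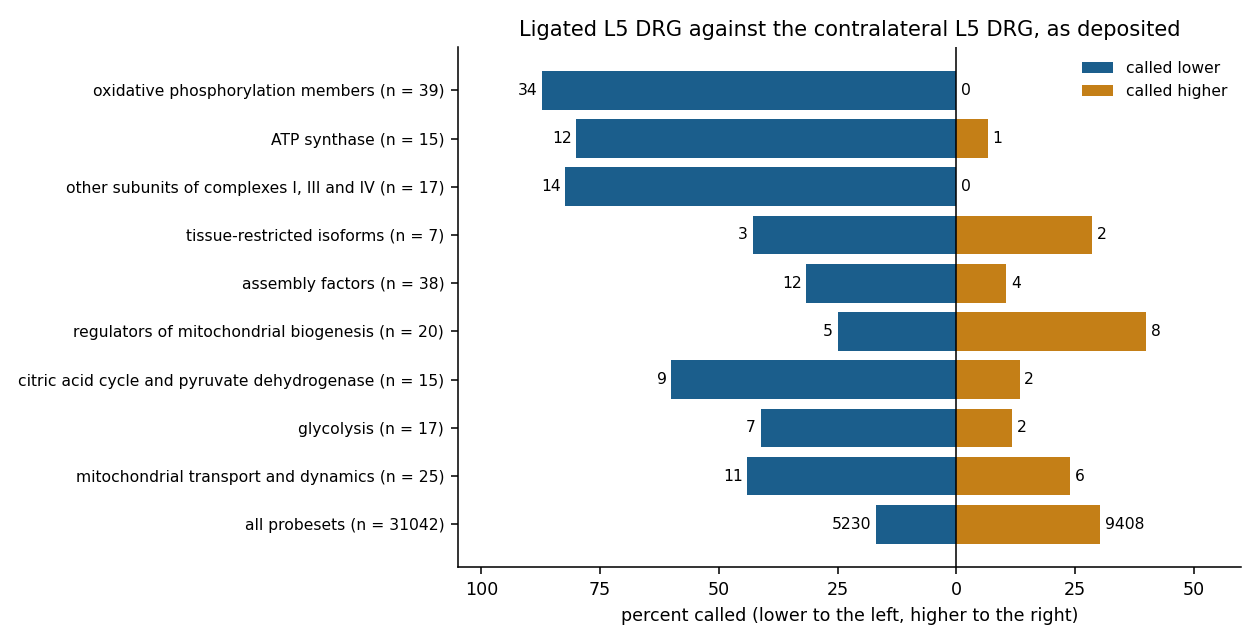
Percent of genes (x axis) called lower (left) and higher (right) in ligated L5 DRGs relative to contralateral L5 DRGs for the members and 8 related lists (rows, with the number measured), and for all probesets; numbers beside bars are counts. The members (34 of 39) and ATP synthase (12 of 15) are mostly called lower. Of 20 regulators of mitochondrial biogenesis 8 are called higher and 5 lower, where 30.3% of all probesets are called higher and 16.8% lower.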

How the data were processed

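mRNA was measured in 40 single DRGs, 5 rats per cohort and both sides and segments of each rat, on 1 Affymetrix array each. The deposited signal intensity of each probeset had been made by the authors with MAS 5 (neither its version nor its settings are given in the sources used here), scaled to a common trimmed mean. Signals were used as deposited on the log2(signal + 16) scale, and the log2 values and fold changes are therefore compressed for low signals. After 57 control probesets were left out, 31042 probesets were tested, of which 20826 carry 1 symbol, 436 several and 9780 none. Depth has no counterpart on arrays, and their number limits the precision. Each comparison used limma 3.58.1 in R 4.3.3 on the arrays it is about, with an intensity trend, and Benjamini-Hochberg adjusted p over all probesets, called under 0.05 (two-sided). Quality measures were compared by exact permutation tests (Python 3.11.15, scipy 1.17.1). The script was tested on simulated data. The 5 arrays of a group are separate rats. No 2 arrays had the same values (highest correlation 0.9960). Ipsilateral and contralateral arrays came from the same rats, so same-numbered arrays are paired, but their deviations from the group means correlated only between -0.06 and 0.04 in SNL L5, -0.01 and 0.04 in SNL L4, -0.05 and 0.10 in sham L4 and -0.14 and 0.01 in sham L5.

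Signals on every array are given for 20 members, those with the 4 largest called rises or falls without overlap in a comparison and the member with the highest mean signal of each complex. Of other lists, up to 4 called genes with the largest change are named. Members and lists were chosen with earlier results of these data known. Alternatives were quantile normalization, equal medians, other offsets (1 and 64), no intensity trend, no dim probesets, all groups in 1 fit, the methods' t-test, an adjusted p under 0.01, the mean of a gene's probesets, a replicate block and leaving out each array.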

Additional observations from a re-analysis of the deposited data

Results flagged for a closer look

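Among the 20 members with signals given per array, 12 of 160 groups of 5 arrays held an array far from the other 4, where chance alone gives about 1 in 20 groups. In contralateral sham L5 DRGs rat 22 was the array concerned for 5 genes. It was high for *Ndufa4* (1085, others 982 to 1009), *Ndufb3* (1492, others 1236 to 1309.8), *Ndufv1* (547, others 471 to 489) and *Uqcrc1* (463, others 390.4 to 408), and low for *Sdhd* (404, others 468 to 486). On the ipsilateral side of sham L5, rat 22 was high for *Uqcrh* (1639, others 1427 to 1473) and rat 1 low for *Sdhd* (362, others 413 to 433). In SNL L4, rat 48 was high for *Ndufs7* on the contralateral side (241, others 185 to 194) and low for *Ndufa4* on the ipsilateral side (1208, others 1388 to 1453). In SNL L5, rat 8 was high for *Cox7c* on the contralateral side (1021, others 865 to 889) and rat 18 low for *Cyc1* on the ipsilateral side (171, others 222 to 238). In ipsilateral sham L4 DRGs, rat 17 was low for *Ndufv1* (409, others 449 to 462).

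The side difference itself differed between cohorts or segments in 37 of 60 tests of these members (limma interaction, adjusted p under 0.05 over all probesets). Most of these members were picked for a large side difference in these same comparisons, which favours such calls, so the count is a description only. Over all probesets 22.3% were lower and 20.9% higher in SNL against sham rats at L5. The shares were 8.28% and 5.72% at L4, and 8.08% and 11.1% at L5 against L4 in SNL rats. In SNL against sham rats at L5 the side difference differed by -0.22 for *Ndufa1*, -0.41 for *Ndufa2*, -0.87 for *Ndufa4*, -0.68 for *Ndufb3*, -0.58 for *Ndufb6*, -0.61 for *Ndufb8*, -0.60 for *Ndufb9* and -0.92 for *Ndufb10*. It differed by 0.23 for *Sdhc*, -0.37 for *Sdhd*, 0.34 for *Uqcrc1*, -0.72 for *Uqcrh*, -0.53 for *Cox5a*, -0.76 for *Cox7b*, -0.73 for *Cox7c* and -0.51 for *Cox8a*. At L4 the values were 0.31 for *Ndufa1*, -0.20 for *Ndufb9*, 0.47 for *Ndufs7*, 0.57 for *Ndufv1*, -0.51 for *Cox5a*, -0.57 for *Cox7b*, -0.40 for *Cox7c* and -0.25 for *Cox8a*. At L5 against L4 in SNL rats they were -0.58 for *Ndufa1*, -0.32 for *Ndufa4*, -0.45 for *Ndufb3*, -0.39 for *Ndufb6*, -0.38 for *Ndufb9*, -0.37 for *Ndufb10*, -0.55 for *Ndufs7*, -0.54 for *Ndufv1*, 0.31 for *Sdhc*, -0.37 for *Uqcrc1*, -0.25 for *Uqcrh*, -0.72 for *Cyc1* and -0.33 for *Cox8a*.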

How the results depend on the processing

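The fall of most members in SNL L5 kept its direction under every alternative run, with between 33 and 34 members lower and between 0 and 1 higher when each array was left out (1 higher without ipsilateral rat 8 or 18). There, 2 members were called higher after quantile normalization and 1 without dim probesets. With equal medians the counts (higher and lower) were 1 and 20 for SNL L4, 2 and 26 for sham L4, 3 and 31 for sham L5, 7 higher in SNL minus sham at L4 and 0 higher in L5 minus L4. Of all probesets, 5.11% were then higher and 13.5% lower in SNL L4. The shares were 10.1% and 27.5% in sham L4, and 19.6% and 41.5% in sham L5. Among probesets with a mean signal of at least 200, 47.2%, 62.9% and 73.1% were lower, near the members' 51.3%, 66.7% and 79.5%. In SNL minus sham at L4 17.2% of such probesets were higher, and in L5 minus L4 18.8%. With quantile normalization 7 members were higher for SNL L4, 1 for sham L4, 2 for sham L5, and SNL minus sham at L4 had 8 higher and 2 lower. The methods' t-test at a p under 0.001 gave 0 higher and 6 lower in SNL L4, 5 lower in sham L4, and 7 higher and 1 lower in sham L5. In SNL L5 this t-test lost the calls of 9 of the 34 members called in the main fit. An adjusted p under 0.01 left 6 lower in sham L4, 8 higher in sham L5, 1 higher in SNL minus sham at L5, 2 higher in SNL minus sham at L4 and 0 higher in L5 minus L4, and without an intensity trend 2 were higher in SNL minus sham at L4. Leaving out each array gave 4 to 5 higher and 8 to 11 lower in SNL L4, 4 to 5 and 8 to 14 in sham L4, 8 to 12 and 10 to 12 in sham L5 (8 higher without contralateral rat 17), 2 to 2 and 24 to 26 in SNL minus sham at L5, 3 to 6 and 6 to 8 in SNL minus sham at L4, and 1 to 1 and 19 to 25 in L5 minus L4. With the rat as a replicate block, the paired counts (higher and lower) were 0 and 34 in SNL L5, 4 and 9 in SNL L4, 4 and 13 in sham L4, 9 and 9 in sham L5, 2 and 25 in SNL minus sham at L5, 5 and 6 in SNL minus sham at L4 and 1 and 22 in L5 minus L4. Quantile normalization and equal medians turned the sign of 0 and 2 of the 39 members in SNL L5, 4 and 7 in SNL L4, 10 and 10 in sham L4, 12 and 11 in sham L5, 2 and 2 in SNL minus sham at L5, 15 and 7 in SNL minus sham at L4 and 2 and 1 in L5 minus L4. Those called as deposited or in the other scaling were, in sham L4, after quantile normalization *Ndufa4* (-0.16), *Ndufb3* (-0.41), *Uqcrh* (-0.19), *Cox5a* (-0.10), *Cox5b* (-0.18), *Cox6c* (-0.34) and *Cox8a* (-0.01), and with equal medians *Ndufb3* (-0.21) and *Uqcrq* (-0.20). In sham L5 they were, after quantile normalization, *Ndufb3* (-0.11), *Cox4i1* (-0.04), *Cox5a* (-0.15), *Cox5b* (-0.15), *Cox6a1* (-0.16), *Cox6c* (-0.22), *Cox7c* (-0.06) and *Cox8a* (-0.18), and with equal medians *Ndufa2* (-0.24), *Ndufa5* (-0.28), *Ndufa9* (-0.25), *Ndufc2* (-0.09), *Uqcrq* (-0.18), *Cox4i1* (-0.18), *Cox5b* (-0.09), *Cox6a1* (-0.18), *Cox6c* (-0.02), *Cox7c* (-0.20) and *Cox8a* (-0.16). In SNL minus sham at L4 they were, after quantile normalization, *Ndufb9* (0.04), *Cox5b* (0.00), *Cox6c* (0.42) and *Cox8a* (0.09). The cause was not tested. Signals near the offset, as those of *Ndufb8*, limit what a fold change can show.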
